A study of Drosophila melanogaster with 12 samples.

Results

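The translation initiation factor genes of Drosophila melanogaster were taken as all genes whose platform symbol begins with eIF and is the single symbol of a probe set. They numbered 40 of the 11981 genes with a probe set of their own, and they were read by 44 probe sets, with the brightest probe set standing for each gene. By their names and roles, 29 are general factors and 11 are paralogs, that is, further gene copies of a factor or subunit. RNA of whole flies 1 day old was hybridised to 12 Affymetrix Drosophila Genome 2.0 arrays, 3 for each of 4 groups. The groups were tko25t males, tko25t females, wild-type males and wild-type females, and the females of both genotypes were virgin. The mutation tko25t lies in the X-linked gene technical knockout, which encodes a protein of the small subunit of the mitochondrial ribosome. Mutant flies were the F1 of Canton S mothers homozygous for tko25t and Oregon R fathers carrying tko25t, so that males were hemizygous and females homozygous. Wild-type flies were the F1 of the same strains without the mutation. Each array held RNA from its own pool of flies, and flies of both sexes came from 3 independent crosses, so a male and a female array may share a cross. The tissue is the entire fly, gonads included, and no array reads a tissue alone.

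Initiation brings a ribosome to the start codon of an mRNA. The cap at the 5′ end of the mRNA is bound by eIF4E, which holds the scaffold eIF4G and the RNA helicase eIF4A, and eIF4B and eIF4H assist the helicase. The large complex eIF3 sits on the small ribosomal subunit, eIF2 brings the initiator tRNA, and eIF2B reloads eIF2 with GTP and sets how much initiation a cell can run. Drosophila carries several extra copies of eIF4E, eIF4G and eIF3 subunits, and some of these, such as eIF4E3 and eIF4G2, are known for their part in making sperm. eIF1A, the alpha and gamma subunits of eIF2, and eIF4H1 were not analysed here.

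Signals are MAS5 intensities on a linear scale that the authors scaled array by array, and every log2 change below is on the scale of log2(signal + 11.6), which understates the change of dim probe sets. Of the 40 genes, 39 were tested in males, 31 in females and 39 in the fit of all arrays. eIF4E6, a copy of the cap-binding protein, was dim on every array and was not tested. Its signal was 23.0, 4.9 and 19.6 in tko25t males and 3.5, 27.5 and 13.9 in wild-type males, against 7.7, 2.4 and 2.8 in tko25t females and 25.1, 12 and 4.2 in wild-type females. Another 8 genes, all paralogs, were bright enough for testing only through the male arrays, so a higher signal in males was built into their selection. Arrays of a group correlated with each other at 0.941 to 0.987. In all, 3 arrays carried transcripts of the other sex, namely wild-type male replicates 1 and 2 and tko25t female replicate 1. Eggshell and yolk transcripts (14 of 17 listed genes measured) summed to 0.308% to 0.614% of the wild-type female mean in tko25t males, against 7.43%, 4.37% and 0.585% in wild-type male replicates 1, 2 and 3. Accessory gland transcripts (9 of 10 measured) summed to 7.04%, 0.967% and 0.499% of the wild-type male mean in tko25t female replicates 1, 2 and 3, against 0.748% to 2.87% in wild-type females.

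The comparison of males with females asked how the general factors and the paralogs are distributed between the sexes. All 31 members that were bright enough in both sexes were called at an adjusted p under 0.05 (limma, Benjamini-Hochberg) in tko25t flies and again in wild-type flies. In both genotypes 30 of them were lower in males, where 40.2% of all tested probe sets were called lower in males in tko25t flies and 43% in wild-type flies. The remaining member, the paralog eIF4G2, was higher in males, as were 26.4% of all tested probe sets in tko25t flies and 29.4% in wild-type flies. The 8 paralogs selected through the male arrays are described below without a test of sex. In all 31 members bright in both sexes the 3 male arrays lay apart from the 3 female arrays of the same genotype. This held for 72.2% of all tested probe sets in tko25t flies and 74.3% in wild-type flies. All 29 general factors were among those that were lower in males. Their median log2 change, males minus females, was -0.71 in tko25t flies and -1.07 in wild-type flies, beside a median over all tested probe sets of -0.16 and -0.17 for the same genotypes. In RNA of whole flies, fewer cells of a type in 1 sex and less RNA of a gene per cell cannot be told apart. Testis germ line transcripts (13 of 14 measured) summed to 70.5% to 89.1% of the wild-type male mean in tko25t males and 1.03% to 4.34% in tko25t females. In wild-type flies the same sum was 92.4% to 106% in males and 1.14% to 1.93% in females. Ovary germ line transcripts (8 of 10 measured) summed to 32.9% to 41.4% of the wild-type female mean in tko25t males and 73.1% to 107% in tko25t females. They summed to 34.0% to 40.1% in wild-type males and 90.5% to 108% in wild-type females. Both lists were mixed. Of 7 ovary genes tested, 6 were lower in males and 1 was higher (log2 5.26 in tko25t flies, 5.63 in wild-type flies). The median over the 7 was -4.64 in tko25t flies and -3.98 in wild-type flies. Of 11 testis genes tested, 10 were higher in males and 1 was lower (-2.52 in tko25t flies, -2.02 in wild-type flies). Of the ovary genes, 2 passed the brightness filter in males and 7 in females. Of the testis genes, 10 passed in males and 6 in females. For genes that passed in 1 sex alone the direction was part of the selection, so these counts and medians are descriptions. The part of the gonads in the sex differences of the initiation factors was not tested.

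Among the eIF3 subunits, all 13 were lower in males in both genotypes. The log2 changes ran from -1.33 (eIF3d1) to -0.35 (eIF3j) in tko25t flies and from -1.44 (eIF3c) to -0.56 (eIF3j) in wild-type flies. eIF3c, a core subunit that contacts other factors on the small ribosomal subunit, had signals of 377, 345 and 456 in tko25t males, against 893, 843 and 859 in tko25t females. In wild-type flies its signals were 371, 334 and 343 in males, against 986, 989 and 926 in females. Every female array was above every male array, and the male arrays of the 2 genotypes overlapped. The change of eIF3c was -1.12 ± 0.10 in tko25t flies (SE; adjusted p = 8.8e-07) and -1.44 ± 0.10 in wild-type flies (adjusted p = 7.22e-08). eIF3d1, the general form of the subunit that can itself bind a cap in human cells, had the largest tko25t change among general factors (-1.33 ± 0.09, adjusted p = 4.98e-08). eIF3j, the loosely attached subunit, stood at 544, 544 and 611 in tko25t males and 711, 726 and 730 in tko25t females, and at 438, 492 and 525 in wild-type males and 686, 712 and 758 in wild-type females. Its sexes were apart as well, but by the smallest step of the complex. The other 10 subunits lay between these values in wild-type flies.

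All 5 eIF2B subunits were lower in males, with log2 changes of -0.45 to -0.93 in tko25t flies and -0.60 to -1.83 in wild-type flies. eIF2Bepsilon, which carries the nucleotide exchange activity, had the largest wild-type change of any general factor. Its signals were 96.2, 82.3 and 160 in tko25t males, against 223, 221 and 207 in tko25t females, and 58.1, 53.4 and 74.3 in wild-type males, against 243, 262 and 238 in wild-type females. The male mean was 0.520 times the female mean in tko25t flies and 0.25 times in wild-type flies. The log2 change was -0.93 ± 0.19 in tko25t flies (adjusted p = 0.000947) and -1.83 ± 0.19 in wild-type flies (adjusted p = 2.24e-06). eIF2Bdelta, a regulatory subunit, came next among general factors in wild-type flies at -1.48 ± 0.15, against -0.66 ± 0.15 in tko25t flies.

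In the cap-binding complex the sex difference was -0.40 (eIF4A) to -0.995 (eIF4E1) in tko25t flies and -0.71 (eIF4A) to -1.26 (eIF4G1) in wild-type flies. eIF4E1, the general cap-binding protein, had signals of 943, 1009 and 1065 in tko25t males, against 1870, 2232 and 1958 in tko25t females. In wild-type flies it stood at 1083, 955 and 1131 in males, against 2241, 2215 and 2212 in females. The male arrays of the 2 genotypes overlapped, and all lay below every female array. eIF4A, the helicase and a bright probe set, differed less, with male means at 0.757 times the female mean in tko25t flies and 0.609 times in wild-type flies. The 7 remaining general factors, which act in start codon choice, tRNA delivery and joining of the ribosomal subunits, ranged from -0.26 (eIF2A) to -0.86 (eIF6) in tko25t flies and from -0.33 (eIF2A) to -1.24 (eIF6) in wild-type flies. eIF6 keeps the ribosomal subunits from joining too early, and eIF2A is an alternative carrier of initiator tRNA. eIF5B, the GTPase of subunit joining, had almost the same change in both genotypes (-0.49 ± 0.10 in each).

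**Figure D1:**
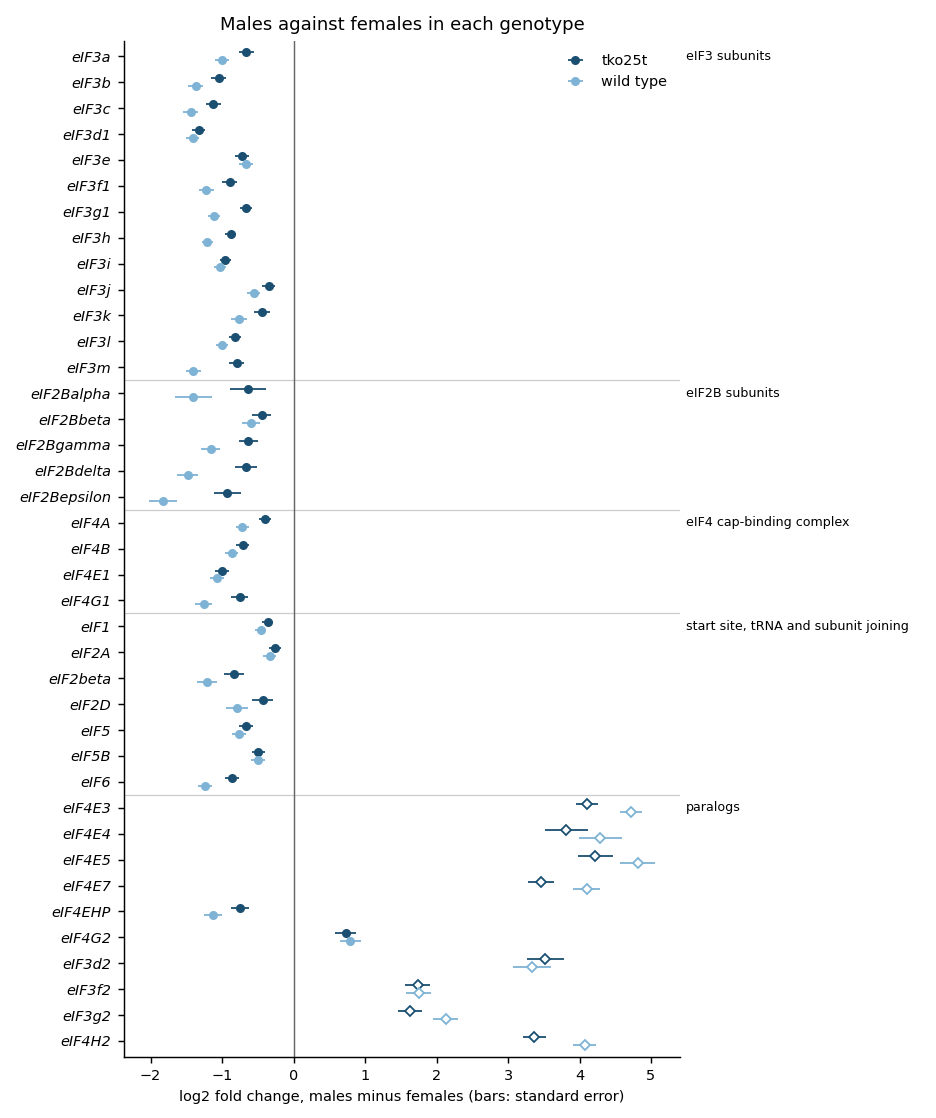
Log2 fold change of males minus females (x axis) for the 39 tested members (y axis, grouped by role), in tko25t flies (dark blue, upper point of each pair) and wild-type flies (light blue), with bars for the standard error; filled circles are called at an adjusted p under 0.05, and open diamonds mark the 8 paralogs selected through the male arrays, shown as a description. The 29 general factors and eIF4EHP lie left of 0 and the other 9 paralogs right of it, from 0.73 (eIF4G2) to 4.22 (eIF4E5) in tko25t flies.

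Of the 10 paralogs that passed the brightness filter, 9 had higher signals in males in both genotypes. For 8 of these a higher male signal was part of the selection, and their sex differences are descriptions with no test. The copies of the cap-binding protein were the most unequal. eIF4E5 had signals of 709.7, 682 and 711 in tko25t males, against 52.6, 17.9 and 18.0 in tko25t females. In wild-type males it had 950, 885 and 984, against 22.1, 27.5 and 17.7 in wild-type females. No male array came near a female array, and the highest female signal was that of tko25t female replicate 1, an array that carried male transcripts. The log2 difference of eIF4E5, males minus females, was 4.22 ± 0.24 in tko25t flies and 4.81 ± 0.24 in wild-type flies. eIF4E3, the copy known for its role in male meiosis, stood at 689.6, 759 and 639.7 in tko25t males and 40.4, 20.6 and 29.3 in tko25t females. In wild-type flies it stood at 955, 934 and 846 in males and 24.2, 21.7 and 24.3 in females. The same array was again the highest among females. The change of eIF4E3 was 4.11 ± 0.16 in tko25t flies and 4.72 ± 0.16 in wild-type flies. The other 2 cap-binding copies were close behind, with 3.82 ± 0.30 in tko25t and 4.29 ± 0.30 in wild-type flies for eIF4E4, and 3.46 ± 0.19 in tko25t and 4.10 ± 0.19 in wild-type flies for eIF4E7. eIF4E7 was the dimmest of the 4 in males, at 162 to 165 in tko25t males and 201 to 232 in wild-type males, and its female signals were 1.3 to 9.9 in tko25t flies and 1.1 to 3.2 in wild-type flies. A further 2 probe sets carry the symbols of eIF4E7 and of another gene and were not used.

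eIF4H2, a copy of the helicase cofactor, had signals of 399, 393 and 336 in tko25t males, against 30.5, 29.6 and 18.9 in tko25t females, and 629.5, 629.9 and 548 in wild-type males, against 20.9, 32.1 and 22.5 in wild-type females. Its log2 change was 3.36 ± 0.16 in tko25t flies and 4.07 ± 0.16 in wild-type flies. The 3 paralogs of eIF3 subunits were also higher in males, by 3.52 ± 0.26 (eIF3d2), 1.74 ± 0.18 (eIF3f2) and 1.63 ± 0.17 (eIF3g2) in tko25t flies and by 3.34 ± 0.26, 1.75 ± 0.18 and 2.13 ± 0.17 for the same genes in wild-type flies. eIF3d2 had signals of 197 to 240.1 in tko25t males and 2.0 to 20.4 in tko25t females, and of 200.3 to 243 in wild-type males and 6.9 to 15.8 in wild-type females. eIF3f2 was more even between the sexes, at 109 to 125 in tko25t males and 26.8 to 27.3 in tko25t females, and 91.9 to 146 in wild-type males and 20.4 to 32.0 in wild-type females. The sexes still did not overlap for either gene.

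eIF4G2 and eIF4EHP were bright in both sexes, so no selection on sex touched them. eIF4G2, the copy of the scaffold needed in male germ cells, had signals of 611, 593 and 572 in tko25t males, against 292, 447 and 334.5 in tko25t females. In wild-type flies its signals were 687, 634 and 638 in males, against 417, 404 and 305 in females. Males were above females on every array, and the ranges of the 2 genotypes overlapped in females but not in males. The log2 change was 0.73 ± 0.15 in tko25t flies (adjusted p = 0.000895) and 0.79 ± 0.15 in wild-type flies (adjusted p = 0.000394). eIF4EHP, which binds the cap but not eIF4G and so represses the mRNAs it sits on, was the one paralog that was lower in males. It stood at 108, 118 and 107 in tko25t males, against 175, 215 and 192 in tko25t females, and at 90.0, 103 and 107 in wild-type males, against 251, 248 and 197 in wild-type females. The change was -0.75 ± 0.13 in tko25t flies and -1.13 ± 0.13 in wild-type flies. A dimmer probe set of eIF4EHP was not called, with changes of 0.14 in tko25t flies (adjusted p = 0.445) and -0.23 in wild-type flies (adjusted p = 0.201), so the sex difference of this gene rests on 1 of its 2 probe sets.

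**Figure D2:**
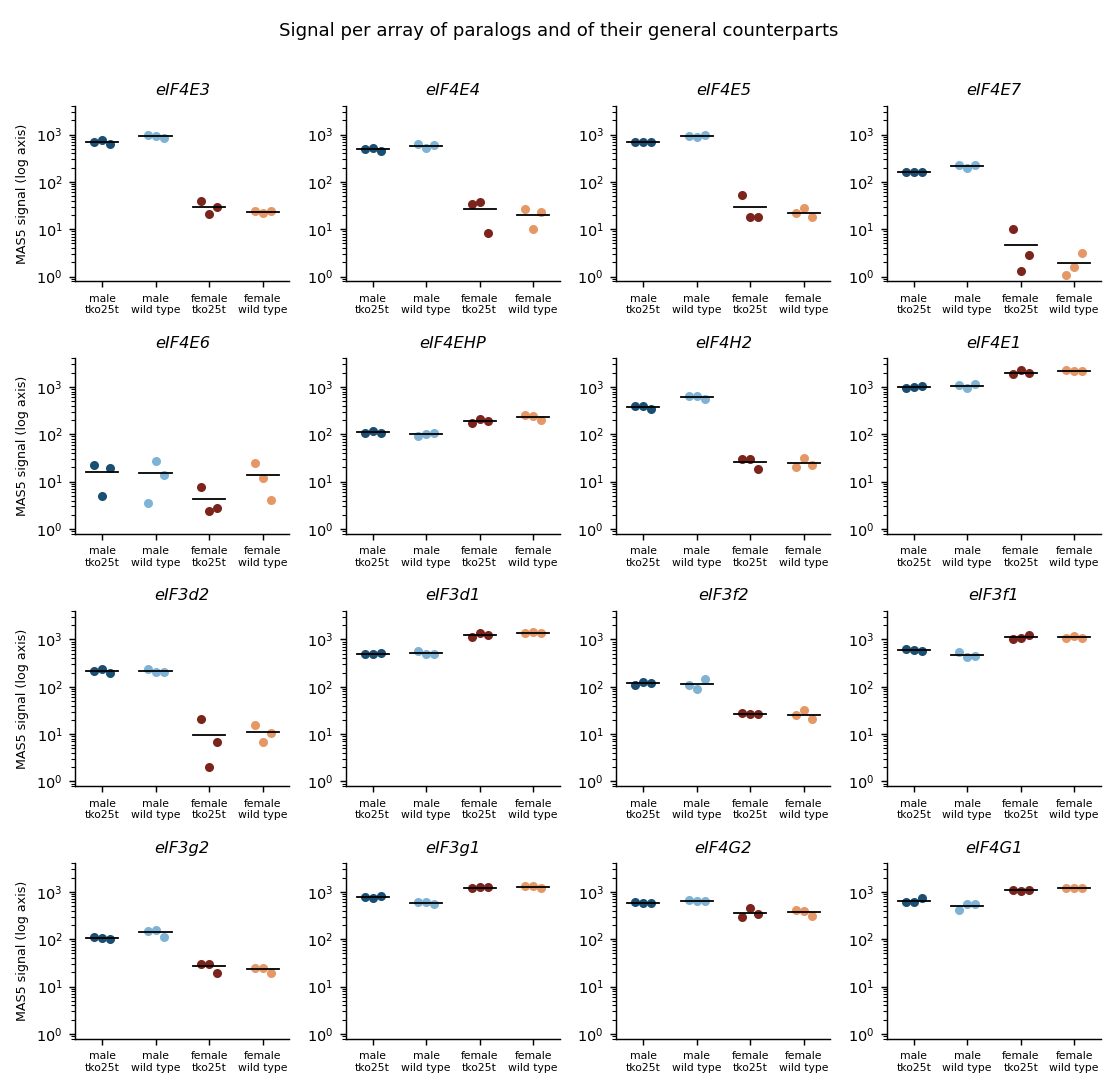
MAS5 signal (log y axis) on each of the 12 arrays for the 11 paralogs and 5 general counterparts, by group (x axis: tko25t males, wild-type males, tko25t females, wild-type females; points are arrays, black lines group means, n = 3). The cap-binding copies eIF4E3, eIF4E4, eIF4E5 and eIF4E7 sit far higher in males while eIF4E1 is higher in females, eIF4E6 is dim throughout, and eIF4G2 and eIF4EHP are measured in both sexes.

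Each paralog was then set against the general factor of the same subunit within each array, as the log2 ratio of the pair. In 7 of the 9 pairs the paralog had passed the brightness filter through male arrays alone, so a higher ratio in males was part of their selection and their differences, males minus females, are given with no test. The difference was 5.55 for eIF4E5 over eIF4E1, 5.45 for eIF4E3, 5.08 for eIF4E4 and 4.81 for eIF4E7. It was 4.80 for eIF3d2 over eIF3d1, 2.80 for eIF3f2 over eIF3f1 and 2.76 for eIF3g2 over eIF3g1. Among these 7 the step was smallest for eIF3f2 and eIF3g2. The other 2 pairs were bright in both sexes and were tested by a two-sided exact permutation of 6 male against 6 female arrays with the genotypes pooled. eIF4G2 over eIF4G1 was higher in males by 1.77 (exact permutation p = 0.00216, the smallest these arrays allow, and 0.00432 adjusted over the 2 pairs), with 1.48 in tko25t flies and 2.05 in wild-type flies. eIF4EHP over eIF4E1 had a difference of 0.10 (exact permutation p = 0.281, also after adjustment), with 0.25 in tko25t flies and -0.06 in wild-type flies.

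The comparison of tko25t with wild-type males asked which factors change with the mutation. At an adjusted p under 0.05, 2 of 39 members were higher in tko25t males (5.51% of all tested probe sets were) and 4 were lower (5.63% of all tested probe sets were). Both counts are small, and the share of members called higher was near that of all probe sets. Both higher members were eIF3 subunits. eIF3m, one of the subunits with a PCI domain, had signals of 501, 543 and 486 in tko25t males, against 364, 289.6 and 317 in wild-type males. All 3 mutant arrays were above all wild-type arrays. The log2 change was 0.64 ± 0.11 (adjusted p = 0.00893), and the mean was 510.1 ± 29.7 in tko25t males and 323 ± 37.6 in wild-type males (SD, n = 3 each). eIF3g1, an RNA-binding subunit, had signals of 775.5, 737 and 801 in tko25t males, against 625, 601 and 552 in wild-type males, also without overlap (0.38 ± 0.09, adjusted p = 0.0355). Mutant arrays lay above wild-type arrays for 15.4% of all probe sets tested in males. Of the 13 eIF3 subunits, 10 had positive changes, and the median was 0.18, beside 48.0% positive and a median of -0.01 over all tested probe sets. Of the other subunits of the complex, eIF3b (0.38, adjusted p = 0.0509) and eIF3f1 (0.32, adjusted p = 0.0943) came closest to a call.

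The 4 members that were lower in tko25t males were paralogs with male-biased signal. eIF4H2 had the largest fall of any member, and its highest signal in tko25t males was 399 while its lowest in wild-type males was 548 (-0.67 ± 0.11, adjusted p = 0.00704). eIF4E5 averaged 701 ± 16.4 in tko25t males and 939.5 ± 50.2 in wild-type males (SD, n = 3 each), a log2 change of -0.42 ± 0.09 (adjusted p = 0.0205). eIF4E7 had signals of 165, 162 and 164 in tko25t males, against 232, 201 and 230 in wild-type males (-0.41 ± 0.11, adjusted p = 0.0414), and eIF4E3 changed by -0.39 ± 0.10 (adjusted p = 0.0414). Mutant and wild-type arrays did not overlap for any of these 4, as for 33.9% of all probe sets tested in males. eIF4E4 (-0.25, adjusted p = 0.175) and eIF3g2 (-0.35, adjusted p = 0.15) were not called, and eIF3d2 (0.02, adjusted p = 0.93) and eIF3f2 (0.05, adjusted p = 0.882) were close to 0. The testis germ line list moved the same way in the same arrays. Of its 10 genes tested in males 5 fell, beside 5.63% of all tested probe sets, and none rose, with a median of -0.41, and the summed signal of the 13 measured was 70.5% to 89.1% of the wild-type male mean in tko25t males and 92.4% to 106% in wild-type males. Accessory gland transcripts summed to 79.3% to 99.9% in tko25t males and 92.2% to 105% in wild-type males. The part of either organ in the falls of the paralogs was not tested.

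**Figure D3:**
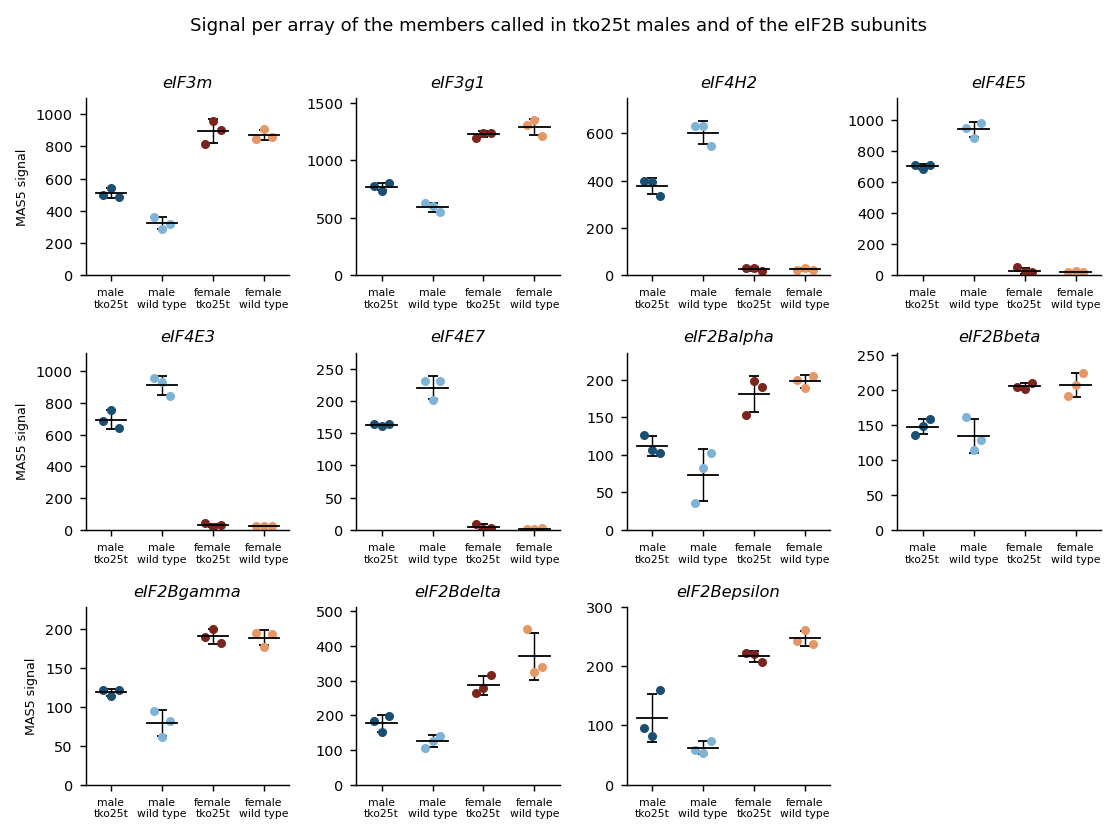
MAS5 signal (linear y axis from 0) on each array for the 6 members called between tko25t and wild-type males and for the 5 eIF2B subunits, by group (x axis as labelled; points are arrays, black lines means, bars SD, n = 3). eIF3m and eIF3g1 are higher and eIF4H2, eIF4E5, eIF4E3 and eIF4E7 lower in tko25t males than in wild-type males without overlap, while eIF2Bepsilon in tko25t males reaches from 82.3 to 160.

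Of the eIF2B subunits, 0 of 5 were called by limma in tko25t males, although 3 had an unadjusted p under 0.05 (28.1% of all tested probe sets had). All 5 changes were positive and the median was 0.54, beside 48.0% positive and a median of -0.01 over all tested probe sets. SAM on linear signals, run as a second method, also called 0 of them, where it called 6.07% of all tested probe sets. The fit of all 12 arrays called eIF2Bgamma (adjusted p = 0.0365) and eIF2Bepsilon (adjusted p = 0.0442) higher in tko25t males, and it called 4.52% of all tested probe sets higher and 2.45% lower. In the fit of males alone, eIF2Bepsilon had a log2 difference of 0.72 ± 0.23 (adjusted p = 0.0733), with 1 mutant array at 160 above the others at 82.3 and 96.2. eIF2Balpha, a regulatory subunit, had one of 0.63 ± 0.29 (adjusted p = 0.185), and its wild-type males spread widely, at 35.2, 81.9 and 102. Replicate 1, the lowest, is the wild-type male array with the most eggshell transcripts, and without the 3 arrays that carried transcripts of the other sex the difference of eIF2Balpha was 0.11. eIF2Bgamma (0.54 ± 0.16, adjusted p = 0.0599) had 122, 114 and 122 in tko25t males, against 95.2, 61.5 and 81.3 in wild-type males, and eIF2Bdelta (0.47 ± 0.15, adjusted p = 0.0678) had 182, 151 and 199 in tko25t males, against 106, 127 and 141 in wild-type males. Mutant arrays lay above wild-type arrays in 4 of the 5 subunits, all but eIF2Bbeta (0.14 ± 0.14), as they did for 15.4% of all tested probe sets. For eIF2Balpha the gap was narrow, with the lowest tko25t male array at 102.4 and the highest wild-type male array at 102.2. The cap-binding complex and the factors of start codon choice held 0 calls among 11 genes by limma or by SAM, and 3 had an unadjusted p under 0.05. eIF4G1 had the largest change there among cap factors (0.37 ± 0.13, adjusted p = 0.11), and eIF4E1 was close to 0 (-0.07 ± 0.10). A dimmer probe set of eIF4B, the helicase cofactor, was called higher (0.45, adjusted p = 0.0485), unlike the one that stands for the gene (0.15, adjusted p = 0.318).

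Of the 6 calls between males, 4 depended on single arrays. Without the 3 arrays that carried transcripts of the other sex, only 1 wild-type male array is left and 0 of the 6 members were called. The log2 changes were then 0.67 for eIF3m (adjusted p = 0.0742), 0.47 for eIF3g1, -0.53 for eIF4H2, -0.48 for eIF4E5, -0.47 for eIF4E7 and -0.28 for eIF4E3, and the median of the eIF2B subunits was 0.30. eIF3m and eIF4H2 kept their call with any single male array left out and were also called by SAM, and each of the other 4 members lost it in at least 4 of the 6 fits that left out 1 male array.

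In females 0 of 31 tested members were called by limma between tko25t and wild type, where 2.05% of all tested probe sets were. At an unadjusted p under 0.05 there were 5, beside 14.4% of all tested probe sets, all 5 lower in tko25t females, and SAM called 0 (3.03% of all tested probe sets). eIF2D, an alternative carrier of initiator tRNA, had the largest change, with 92.8, 88.5 and 75 in tko25t females, against 118, 111 and 124 in wild-type females (-0.42 ± 0.13, adjusted p = 0.18). eIF3k, the partner of eIF3l in the complex, had 722, 787 and 769.6 in tko25t females, against 980, 1007 and 923 in wild-type females (-0.35 ± 0.09, adjusted p = 0.125). Both were without overlap between genotypes, as were 20.3% of all probe sets tested in females. The general factors had a median change of -0.07, beside -0.04 over all tested probe sets. Of these factors 6 of 29 were positive, beside 41.2% of all tested probe sets. Without the 3 arrays that carried transcripts of the other sex, 11 of 29 were positive. Arrays of tko25t females lay below those of wild-type females for 13 of 31 members and above them for 0. Over all tested probe sets this held for 10.6% and 9.62%. eIF3m, the called member with the largest rise in tko25t males, had a difference of 0.03 ± 0.10 in females.

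**Figure D4:**
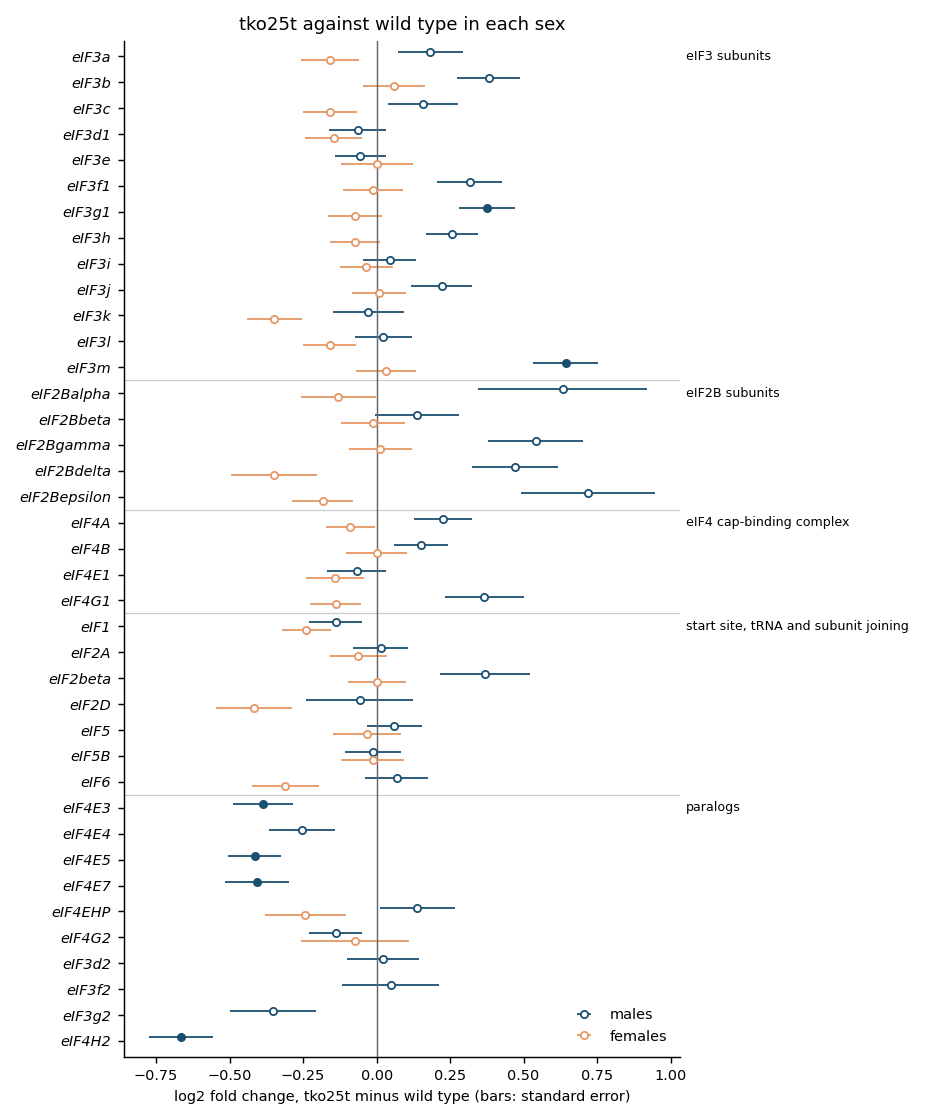
Log2 fold change of tko25t minus wild type (x axis) in males (blue, upper point of each pair, 39 members) and females (orange, 31 members), with bars for the standard error; filled points are called at an adjusted p under 0.05 and open points are not. The filled points are eIF3m and eIF3g1 to the right of 0 and eIF4E3, eIF4E5, eIF4E7 and eIF4H2 to the left, all in males.

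Averaged over the sexes, 1 of 39 members was called, eIF3m, which was higher in tko25t flies (0.34 ± 0.07, adjusted p = 0.015), where 8.42% of all tested probe sets were called. Whether the effect of tko25t differs between the sexes was tested in the fit of all 12 arrays. By limma 0 of 39 members were called, where 0.104% of all tested probe sets were, and 14 had an unadjusted p under 0.05, beside 12.8% of all tested probe sets. The difference, male effect minus female effect, was positive for 28 of 29 general factors, with a median of 0.32, beside 52.0% positive and a median of 0.02 over all tested probe sets. Without the 3 arrays that carried transcripts of the other sex it was positive for 26 of 29, with a median of 0.32. This is the same quantity as the smaller distance between the sexes in tko25t flies given above. The largest single differences were those of eIF2Bepsilon (0.90 ± 0.27, adjusted p = 0.206), eIF2Bdelta (0.82 ± 0.22, adjusted p = 0.16) and eIF2Balpha (0.76 ± 0.36, adjusted p = 0.403). Without the same 3 arrays they were 0.69 for eIF2Bepsilon, 0.60 for eIF2Bdelta and 0.14 for eIF2Balpha. For eIF4H2 it was -0.71 ± 0.23 (adjusted p = 0.241), but its female signals were dim, with means of 26.3 in tko25t and 25.2 in wild-type females. The 39 members in the average and in the difference include the 8 paralogs that were too dim for testing in females. For these 8, neither comparison holds a change that could be read well in females.

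Genes outside the eIF symbols that act in or on initiation were read from a list of 28, of which 4 are older names of members, 4 were not analysed here, and 20 were measured. Of the 16 tested in males, 2 rose in tko25t males, beside 5.51% of all tested probe sets, and none fell. clu, which binds mRNAs of mitochondrial proteins and was once listed as an eIF3 subunit, had signals of 414.5, 307 and 643 in tko25t males, against 179, 265 and 251 in wild-type males (0.89, adjusted p = 0.044). pAbp, the poly(A)-binding protein that joins the mRNA tail to eIF4G, had 2273, 2028 and 2232 in tko25t males, against 1408, 1746 and 1611 in wild-type males (0.46, adjusted p = 0.029). Mutant arrays were above wild-type arrays for both, as they were for 15.4% of all probe sets tested in males. In females 0 of 19 were called by limma (2.05% of all tested probe sets were), with 3 at an unadjusted p under 0.05 (14.4% of all tested probe sets). SAM called 0 in females and clu alone in males, where it called 3.03% of all tested probe sets in females and 6.07% in males. Averaged over the sexes, PEK, a kinase that inhibits eIF2 under endoplasmic reticulum stress (0.36, adjusted p = 0.041), and PPP1R15, the phosphatase subunit that reverses this (0.25, adjusted p = 0.038), were higher in tko25t flies, and bel, a helicase of the DDX3 family, was lower (-0.36, adjusted p = 0.032). These were 2 higher and 1 lower of 19, where 5.55% of all tested probe sets were called higher and 2.87% lower. Between the sexes, 13 of 19 were called in tko25t flies and 14 of 19 in wild-type flies, each of them lower in males, beside 40.2% of all tested probe sets in tko25t flies and 43% in wild-type flies. Of these 19 genes, 16 had passed the brightness filter in males and all 19 in females. Where a gene passed through female arrays alone, a lower male signal was built into its selection. clu had the lowest value between the sexes in wild-type flies (-1.57) and MCTS1, the partner of DENR in tRNA delivery and ribosome recycling, in tko25t flies (-1.09). MCTS1 passed the filter through female arrays alone, with means of 31.5 in tko25t males and 79.8 in tko25t females. Its sex difference is therefore a description with no test.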

How the data were processed

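RNA of whole flies was read on 12 arrays. The deposited intensities are MAS5 signals that the authors made with the GCOS software and scaled array by array. A check of the values showed a linear scale, and none was rescaled. Symbols came from the platform annotation, and the RefSeq symbol was the same for 40 of 40 genes. The table holds 18952 probe sets, and its 183 control probe sets were not tested. Probe sets tested were the brightest 53.3% of the table in males and 51.6% in females by their mean over that sex's 6 arrays, which stood in for the prefilter of the study on detection p-values, and 11547 in the fit of all arrays. limma 3.58.1 (R 4.3.3, trend of variance, two-sided, Benjamini-Hochberg over all tested probe sets) was run on log2(signal + 11.6), the offset being the median 25th percentile of signal, within each sex for genotype and on 4 group means for the other comparisons. Errors of log2 changes are standard errors. Scripts were tested on simulated data. Python 3.11.15, pandas 2.3.3, numpy 2.4.6 and scipy 1.17.1 did the rest. SAM (s0 = 20, fold above 1.5, FDR under 2.5%) was an alternative. Named were all paralogs with their counterparts, the called members with the largest changes in each comparison (up to 10 each way) and called genes of the list of other initiation genes, with values that came closest to a call added after they were seen. Members, lists and tests were chosen with earlier results of these data known.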

Additional observations from a re-analysis of the deposited data

How the results depend on the processing

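The number of arrays, 3 in a group, limits the precision, and dim probe sets, such as most paralogs in females, lie near background. Between males, 6 members were called. The count was 0 without the 3 arrays that carried transcripts of the other sex, where 1 wild-type male array stood for its group and was assumed to vary like the others, and 2 (eIF3m and eIF4H2) with SAM. It ran from 2 to 6 when 1 male array was left out: 2 without replicate 1 of tko25t or replicate 3 of wild type, 3 without replicate 2 or 3 of tko25t or replicate 2 of wild type, and 6 without replicate 1 of wild type, of which 5 were then higher and 1 lower in tko25t males. In the fit of all arrays it was 5, with 4 higher in tko25t males (eIF3m, eIF3g1, eIF2Bgamma and eIF2Bepsilon) and 1 lower (eIF4H2), so that eIF4E3, eIF4E5 and eIF4E7 lost their call. Averaged over the sexes the count of 1 became 2 with 4 times the offset (eIF3m and eIF4H2), 2 with an offset of 1 and 2 with quantile normalization (eIF3m and eIF1 in each), and ran from 1 to 3 with an array left out (3 without wild-type male replicate 1: eIF3m, eIF3b and eIF2Bgamma). The counts of 0 in females and for the difference between the sexes stayed 0 under every alternative. Between the sexes all 31 members bright in both sexes passed the threshold in wild-type flies under every alternative that left at least 2 arrays in each group. In tko25t flies the count ran from 36 to 39. That count holds the 8 members selected through male arrays, for which a higher male signal was built in.

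Of 882 values of the named called members under the alternatives, 0 reversed and 31 lost their call, all 31 between males. Between males eIF4E7 lost its call whichever male array was left out (adjusted p 0.0543 to 0.129). Between the sexes there were 396 values in each genotype, and part of them were fixed by selection. They hold the 8 paralogs selected through male arrays, for which a kept call between the sexes is no test. The values between the sexes cover the paralogs, their counterparts and the members with the largest changes. Members outside that set also lost calls in tko25t flies, where 27 of 29 general factors were called with quantile normalization. The cause was not tested.

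The replicate numbers of the labels were not taken to pair arrays, since arrays with the same number correlated in their deviations at -0.158 to 0.374. With the replicate block the count between males was 4, with eIF3m, eIF4H2, eIF4E5 and eIF2Bepsilon called. It was 0 in females, 1 averaged over the sexes and 0 for the difference between the sexes. All 31 members bright in both sexes were called between the sexes in each genotype.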

Other observations

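Of 8 elongation, release and ribosome rescue factors measured, 6 were called lower and 1 higher in males in each genotype. Of all tested probe sets, 40.2% were called lower and 26.4% higher in males in tko25t flies, and 43% lower and 29.4% higher in wild-type flies. eRF3, the GTPase of translation termination, had signals of 620, 547 and 720 in tko25t males, against 1315, 1585 and 1495 in tko25t females, and 592, 605 and 578 in wild-type males, against 1427, 1494 and 1532 in wild-type females. Its log2 change, males minus females, was -1.21 in tko25t flies (limma, adjusted p = 6.5e-07) and -1.31 in wild-type flies (adjusted p = 2.4e-07). The factor that was higher in males was eEF1alpha2, a form of the tRNA-carrying elongation factor, by 0.50 in tko25t flies (adjusted p = 0.039) and 0.58 in wild-type flies (adjusted p = 0.018). Between genotypes 0 of the 8 were called by limma or by SAM in males or in females, and in females 0 had an unadjusted p under 0.05. In males 2 had an unadjusted p under 0.05, beside 28.1% of all tested probe sets, among them pelo, a ribosome rescue factor, at 163, 176 and 189 in tko25t males and 104, 152 and 129 in wild-type males (0.43, adjusted p = 0.086). All 8 changes in males were positive with a median of 0.12, beside 48.0% positive and a median of -0.01 over all tested probe sets.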
